A study of Mus with 12 samples.

Results

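The genes described here are 7 granzymes (Gzma, Gzmb, Gzmc, Gzmd, Gzme, Gzmf and Gzmg), perforin (Prf1) and the receptors Ncr1 (NKp46) and Klrk1 (NKG2D), which belong to the cytotoxic program of natural killer (NK) cells. A row of a deposited gene table counted as a member where its gene name held one of these 10 symbols and it carried an Ensembl transcript. In the table of E0.5 and E4.5 the 10 genes lay in 8 of 87235 rows, because Gzmd, Gzme and Gzmg share 1 row there. In the table of E15.5 and E18.5 they lay in 10 of 40787 rows. All of these member rows passed the filter for a test, a mean of at least 0.1 FPKM (fragment counts scaled to transcript length and library size).

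RNA was sequenced from the whole uterus of 12 pregnant ICR mice, an outbred strain, aged 8 weeks. The 4 groups of 3 mice are named by the day after mating, E0.5 with E4.5 for the stage of implantation and E15.5 with E18.5 for that of labor, and each library is 1 mouse. The labels give no engineered allele and no treatment for any group, and the sources used here do not describe how embryos and placentas were separated from the uterus. The study compared the days within each stage to find RNAs that may follow progesterone, which was not measured in these mice. A log2 fold change below 0 here means a lower level at E0.5 or at E18.5.

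Granzymes are serine proteases that NK cells and cytotoxic T cells store in granules together with perforin, a protein that opens pores in the membrane of a target cell. Uterine NK cells gather in the decidua, the transformed lining around the implanted embryo, become large and heavily granulated, take part in remodelling the spiral arteries, and decline late in gestation. Granzymes A and B are the members shared by most mammals, whereas the granzymes C to G are a rodent group described in the NK cells of the mouse decidua. NKp46 and NKG2D are activating receptors on the surface of these cells.

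Of the 7 granzymes, 6 lie in 1 block on the minus strand of chromosome 14, with Gzmn, which is no member, and pseudogenes between Gzmg and Gzmf. In the coordinates of the first table, which match the mouse build GRCm38, they run from Gzme, Gzmd and Gzmg (56117626 to 56159579) over Gzmf (56205263 to 56211417) and Gzmc (56231405 to 56238700) to Gzmb (56258838 to 56262260). Gzma lies apart on chromosome 13 (113093825 to 113100981), Prf1 on chromosome 10 (61297833 to 61304680), Ncr1 on chromosome 7 (4337724 to 4345164) and Klrk1 on chromosome 6 (129610323 to 129623864). The granzymes C to G are close paralogs and the assignment of reads to them is not stated, so the split between single genes of this group is uncertain. Gm4022, an antisense gene on the plus strand that overlaps the end of Gzmf, was between 0 and 0.743 FPKM in all 12 libraries. It was at 0.743, 0.632 and 0.281 FPKM at E15.5 and at 0.0226, 0.127 and 0.0780 FPKM at E18.5 (log2 fold change -1.85, limma adjusted p = 0.183). Its E18.5 mean was under 0.1 FPKM, so the filter fixed this direction. Strand-specific counting is not stated, so its reads and those of Gzmf cannot be told apart.

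The 6 libraries of E0.5 and E4.5 held 58020989 to 70906881 counts, of which 531 to 18039 fell on the member rows. The labor stage has FPKM only, so its depth is unknown. One library of each stage stood apart. E4.5 replicate 3 had Spearman correlations of 0.711 and 0.720 with the other E4.5 libraries, against 0.928 for the remaining pair, over 11682 protein-coding rows. It had the lowest levels of the 6 libraries for the uterine genes Acta2 (112 FPKM against 278 to 512), Myh11 (20.3 against 79.3 to 136), Esr1 (5.54 against 9.62 to 16.8) and Pgr (1.31 against 3.45 to 9.52). E15.5 replicate 1 had correlations of 0.878 and 0.905 with the other E15.5 libraries, against 0.963 for the remaining pair, over 11566 rows. It held 1342 FPKM of the decidual prolactin Prl8a2 against 72.1 and 86.0 in the other E15.5 libraries, and its Myh11, at 274 FPKM, was the lowest of the labor stage (484 to 712 in the others). Its Acta2 (1187 FPKM), Esr1 (25.6) and Pgr (7.48) were not the lowest of that stage. The uterine genes were detected in every library of both stages, and the members' results are given with and without these libraries. For the related gene lists, the count of calls without them is given where it changed.

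At the labor stage all 10 members were lower at E18.5 than at E15.5, with log2 fold changes from -4.01 for Gzmb to -1.19 for Klrk1 and a median of -3.24, against a median of 0.02 over all 30928 tested rows. The granzymes C to G reached 247 to 2907 FPKM in the E15.5 libraries and 18.6 to 475 FPKM in the E18.5 libraries (ratios of the E15.5 to the E18.5 mean from 6.43 for Gzmf to 10.6 for Gzmc). Gzmb, a granzyme that starts apoptosis in target cells, and perforin showed the largest fitted falls, 16.2-fold and 12.3-fold. In bulk tissue, fewer cells of a type and less RNA per cell cannot be told apart.

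The granzymes C to G carried most of this RNA. Gzmg was at 2907, 1429 and 1099 FPKM in E15.5 replicates 1 to 3 and at 99.7, 138 and 407 FPKM in E18.5 replicates 1 to 3. Gzmf was at 2281, 1495 and 1195 FPKM at E15.5 and at 125, 172 and 475 FPKM at E18.5. Gzmd was at 2483, 1149 and 906 FPKM at E15.5 and at 78.8, 110 and 347 FPKM at E18.5. In each of these genes E15.5 replicate 1 was the highest library, E18.5 replicate 3 was the highest of its day, and the days did not overlap. The same held for Gzme, at 1100, 513 and 375 FPKM at E15.5 and 29.4, 40.1 and 131 FPKM at E18.5. Gzmc was at 762, 333 and 247 FPKM at E15.5 and at 18.6, 24.9 and 83.2 FPKM at E18.5, again without overlap. The fitted log2 fold changes were -3.22 for Gzmg (standard error 0.61), -2.88 for Gzmf (0.54), -3.25 for Gzmd (0.63), -3.47 for Gzme (0.63) and -3.55 for Gzmc (0.64), with limma adjusted p-values between 0.139 and 0.146.

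Gzmb and Gzma, the granzymes found in NK cells and cytotoxic T cells of most tissues, were less abundant. Gzmb was at 180.8, 92.3 and 51.3 FPKM at E15.5 and at 3.03, 4.44 and 14.2 FPKM at E18.5 (log2 fold change -4.01, standard error 0.65, limma adjusted p = 0.112). Gzma was at 21.0, 1.60 and 1.28 FPKM at E15.5 and at 0.881, 0.457 and 0.456 FPKM at E18.5 (log2 fold change -2.45, standard error 1.0, limma adjusted p = 0.399). The E15.5 mean of Gzma thus rests on replicate 1, and without that library its log2 fold change was -1.19, against -3.16 without E15.5 replicate 3. Perforin was at 169, 122 and 76.9 FPKM at E15.5 and at 4.59, 7.13 and 25.1 FPKM at E18.5 (log2 fold change -3.62, standard error 0.62, limma adjusted p = 0.121). Without E18.5 replicate 3, the E18.5 library with the most perforin, its log2 fold change was -4.33 with a limma adjusted p of 0.0454, the only member value under 0.05 among the alternatives of this stage. In the same setting the log2 fold changes of Gzmb (-4.66), Gzmc (-4.20), Gzme (-4.11), Gzmd (-3.88) and Gzmg (-3.82) were also larger in size. Without the log, these falls were larger by a factor above 1.5.

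The receptors were below perforin, Gzmb and the granzymes C to G in every labor library. Ncr1 was at 3.63, 0.995 and 1.04 FPKM at E15.5 and at 0.364, 0.362 and 0.353 FPKM at E18.5 (log2 fold change -1.86, standard error 0.48, limma adjusted p = 0.212). Its row in this table holds 1 Ensembl transcript, against 2 in the table of E0.5 and E4.5. Klrk1 was at 0.620, 0.333 and 0.463 FPKM at E15.5 and at 0.0958, 0.171 and 0.176 FPKM at E18.5 (log2 fold change -1.19, standard error 0.34, limma adjusted p = 0.243). Neither receptor overlapped between the days, but both lie so low that log2(FPKM + 0.1) understates their change.

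**Figure D1:**
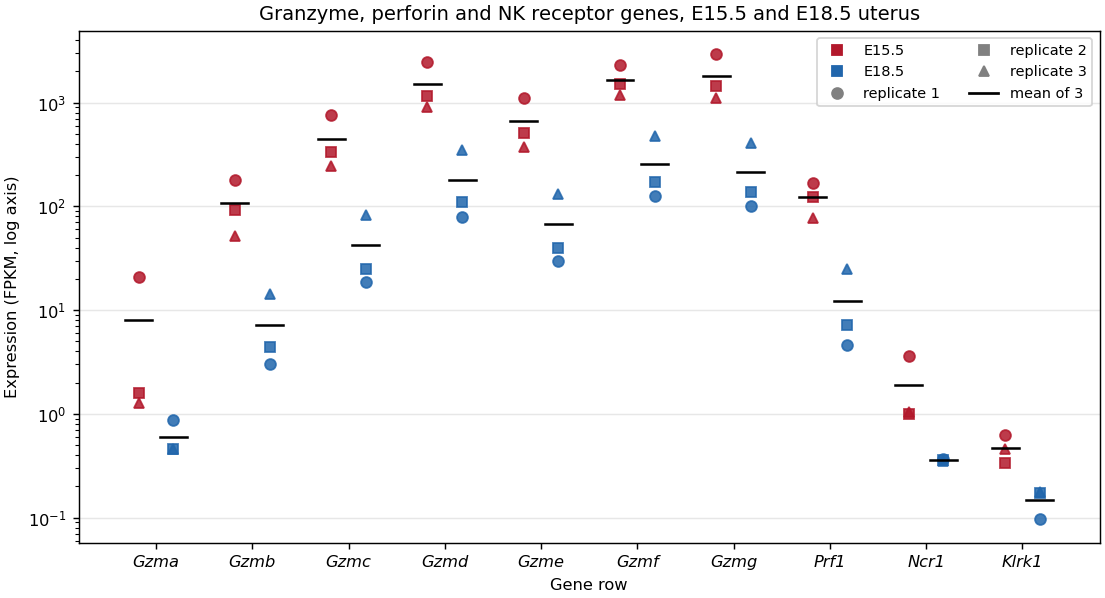
FPKM of the 10 members on a log axis in the 3 E15.5 libraries (red) and the 3 E18.5 libraries (blue), with 1 marker shape per replicate and a black line at the mean of 3. For every gene the lowest red marker lies above the highest blue one, from Gzmg (1099 against 407) to Klrk1 (0.333 against 0.176).

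All 10 members passed the study's criterion, a log2 fold change of 1 or more in size and a p below 0.05 before adjustment, which 2.93% of all tested rows passed in this direction. In all 10 the 3 E15.5 libraries lay above the 3 E18.5 libraries, as in 8.96% of all tested rows. None of the 10 reached an adjusted p under 0.05 in limma, a threshold that only 0.00647% of tested rows (2 rows) passed in this direction. All 10 had an unadjusted p under 0.05, and no other setting with all 6 libraries gave a member below the adjusted threshold. Without E15.5 replicate 1 all 10 members still passed the study's criterion, with a median log2 fold change of -2.82. Gzma lost its call when any 1 of the E18.5 libraries was left out, without the filter, without the trend and with a pseudocount of 1, where the log2 fold changes of Ncr1 (-0.97) and Klrk1 (-0.36) were also too small.

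The order of the levels was nearly the same on both days. At E15.5 Gzmg (1812 ± 963 FPKM, SD, n = 3), Gzmf (1657 ± 561) and Gzmd (1513 ± 849) led and overlapped one another, followed by Gzme (663 ± 385) and Gzmc (447 ± 276), which also overlapped. Perforin (123 ± 46.0) and Gzmb (108 ± 66.2) came next with overlapping ranges. Gzma (7.96 ± 11.3), Ncr1 (1.89 ± 1.51) and Klrk1 (0.472 ± 0.144) closed the order. Ranges of neighbours in this order were apart between Gzmc and perforin, Gzmb and Gzma, and Ncr1 and Klrk1. At E18.5 Gzmf (258 ± 190 FPKM) stood first, before Gzmg (215 ± 167) and Gzmd (178 ± 146), with overlap, and the rest kept their places. There Gzmc and perforin overlapped, and Gzmb, Gzma, Ncr1 and Klrk1 did not overlap one another. The spread within a day was wide, with coefficients of variation of 30.5% to 142% at E15.5 and 1.66% to 91.1% at E18.5.

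Summed over the 7 genes, granzymes made up 1.78%, 0.893% and 0.818% of all FPKM in the E15.5 libraries and 0.0721%, 0.104% and 0.263% in the E18.5 libraries. The most abundant granzyme row ranked 17th, 28th and 28th of all rows at E15.5 and 219th, 142nd and 56th at E18.5. In the implantation table the sums were 0.00268%, 0.00286% and 0.00688% at E0.5 and 0.0379%, 0.0239% and 0.00158% at E4.5, with Gzmd, Gzme and Gzmg entering as 1 row and 1 FPKM value. The tables were assembled and normalized separately, so these levels are set side by side without a test.

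The group C to G made up 97.9% to 99.0% of the granzyme FPKM in each labor library and 49.1% to 79.0% in each implantation library. Gzma made up 0.0313% to 0.248% in the labor libraries and 6.20% to 34.2% in the implantation libraries. These shares are not on 1 scale, because the joint implantation row of Gzmd, Gzme and Gzmg held 208 to 243 counts per FPKM against 68.1 to 80.1 for Gzmf. Its single FPKM value gives that row less weight than a sum over separate genes would, which lowers the implantation share of the group and raises that of Gzma. By counts, which carry no length scaling, the group made up 59.7% to 82.1% of the granzyme reads in the implantation libraries and Gzma 3.90% to 23.7%. Within the labor stage the share of Gzmf was 23.4% to 30.8% at E15.5 and 32.6% to 35.2% at E18.5. The shares of Gzmb (1.33% to 1.86% against 0.851% to 0.977%), Gzmc (6.37% to 7.83% against 5.07% to 5.71%), Gzme (9.67% to 11.3% against 8.17% to 9.01%) and Gzmg (28.4% to 29.9% against 27.9% to 28.2%) were higher at E15.5. The days did not overlap in these 5 genes and overlapped in Gzmd and Gzma. The ratio of Gzmb to perforin stayed between 0.568 and 1.07 in the labor libraries and between 1.17 and 2.13 in the implantation libraries.

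**Figure D2:**
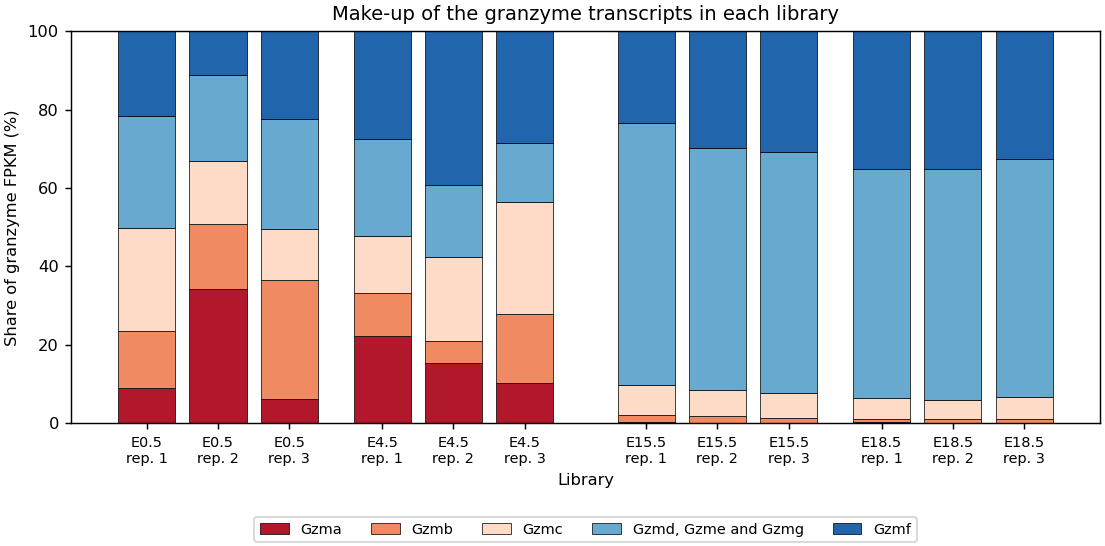
Stacked bars give, for each of the 12 libraries, the share of the summed granzyme FPKM (%) held by Gzma, Gzmb, Gzmc, Gzmd with Gzme and Gzmg, and Gzmf. The group C to G fills 97.9% to 99.0% of each labor bar and 49.1% to 79.0% of each implantation bar, where Gzmd, Gzme and Gzmg are 1 row with 1 FPKM value, so bars of the stages are not on 1 scale.

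In the earlier pair of days the 8 member rows were also lower at E0.5 in the fit, with log2 fold changes from -3.24 for Gzmf to -0.45 for Klrk1 and a median of -1.95, against -0.01 over all 59732 tested rows. The libraries of the 2 days overlapped in all 8 rows. E4.5 replicate 3 was the lowest of the 6 libraries in 7 rows, and in Gzmf the second lowest after E0.5 replicate 2, while E4.5 replicate 1 was the highest in 7 and replicate 2 in Klrk1. Only Gzmc and Gzmf passed the study's criterion, 2 of 8 rows against 5.82% of all tested rows in this direction.

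Gzmf was at 1.60, 0.882 and 3.98 FPKM in E0.5 replicates 1 to 3 and at 33.5, 26.0 and 1.05 FPKM in E4.5 replicates 1 to 3 (log2 fold change -3.24, standard error 1.18, edgeR adjusted p = 0.237). Gzmc was at 1.95, 1.25 and 2.32 FPKM at E0.5 and at 17.6, 14.1 and 1.06 FPKM at E4.5 (log2 fold change -2.58, standard error 0.92, edgeR adjusted p = 0.227). In both genes 2 of the 3 E4.5 libraries lay above all E0.5 libraries and the third lay with or below them. The joint row of Gzme, Gzmd and Gzmg was at 2.10, 1.70 and 5.02 FPKM at E0.5 and at 29.9, 12.3 and 0.564 FPKM at E4.5 (log2 fold change -2.31, standard error 1.18, edgeR adjusted p = 0.366). Gzma was at 0.663, 2.67 and 1.11 FPKM at E0.5 and at 27.0, 10.2 and 0.378 FPKM at E4.5 (log2 fold change -3.10, standard error 1.31, edgeR adjusted p = 0.296). These rows had the same order of the E4.5 libraries as Gzmf, but missed the criterion.

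Gzmb was at 1.07, 1.31 and 5.44 FPKM at E0.5 and at 13.4, 3.82 and 0.659 FPKM at E4.5 (log2 fold change -1.23, standard error 1.10, edgeR adjusted p = 0.606). Perforin was at 0.546, 1.03 and 3.49 FPKM at E0.5 and at 11.2, 3.27 and 0.309 FPKM at E4.5 (log2 fold change -1.58, standard error 1.21, edgeR adjusted p = 0.543). In both genes E0.5 replicate 3 lay above E4.5 replicate 2, and only E4.5 replicate 1 lay above all E0.5 libraries. Ncr1 was at 0.333, 0.647 and 0.753 FPKM at E0.5 and at 2.42, 0.439 and 0.148 FPKM at E4.5 (log2 fold change -0.84, standard error 0.98, edgeR adjusted p = 0.702). Klrk1 was at 0.0920, 0.250 and 0.248 FPKM at E0.5 and at 0.312, 0.416 and 0.0821 FPKM at E4.5 (log2 fold change -0.45, standard error 0.67, edgeR adjusted p = 0.771), which rests on 49 to 246 counts per library.

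**Figure D3:**
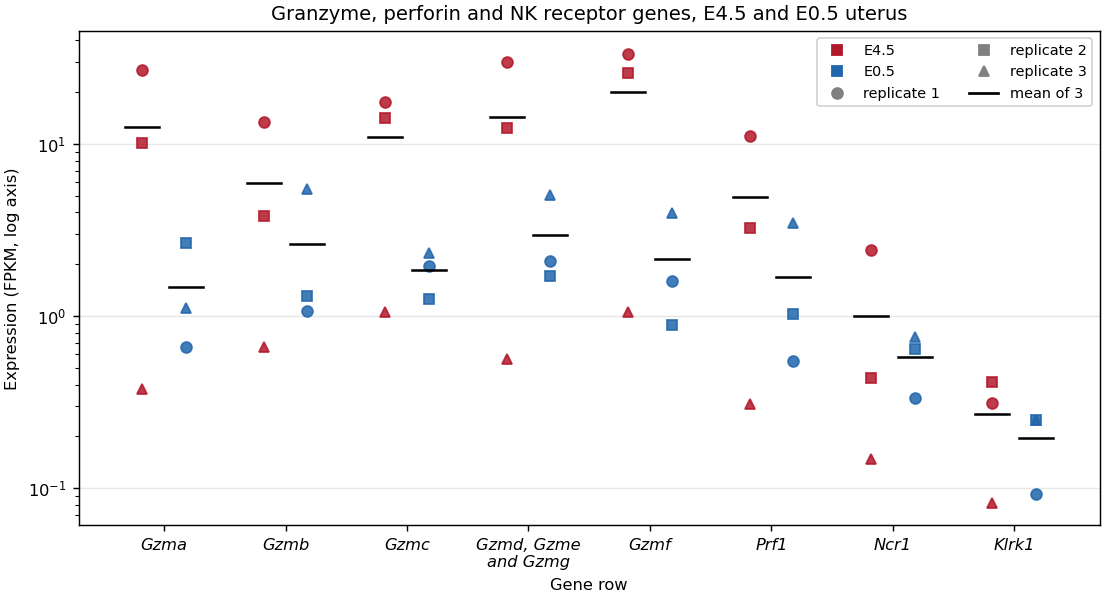
FPKM of the 8 member rows on a log axis in the 3 E4.5 libraries (red) and the 3 E0.5 libraries (blue), with 1 marker shape per replicate and a black line at the mean of 3. E4.5 replicate 3 is the lowest marker in 7 rows, all but Gzmf, and the days overlap in all 8 rows.

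None of the 8 rows reached an adjusted p under 0.05 in edgeR, as against 0.449% of all tested rows in this direction, while 2 had an unadjusted p under 0.05. DESeq2 put 3 rows (Gzma, Gzmc and Gzmf) under that threshold and limma on FPKM put none, with either pseudocount. Over all 59732 tested rows and both directions, 4812 met it with DESeq2 and 719 with edgeR. With limma 866 rows met it at a pseudocount of 0.1 and 711 at 1. These counts also require a log2 fold change of 1 or more in size. The calls depended on single libraries. Without E4.5 replicate 3, 5 rows passed the study's criterion and 4 (Gzma, Gzmc, Gzmf and the joint row) had adjusted p-values of 0.00389 to 0.0331 in edgeR. Calls over all rows and both directions rose there too, to 8391 of 58151 by the study's criterion and 3200 by the adjusted p. With all libraries they were 7284 and 719 of 59732. Without E4.5 replicate 1 or 2, or without E0.5 replicate 1 or 2, no row passed the study's criterion, and without E0.5 replicate 3 only Gzmf did (-4.04). In that setting Gzmb was at -2.35, perforin at -2.67 and the joint row at -2.94, and without E0.5 replicate 2 Gzma was at -3.84. Without E4.5 replicate 1 the sign turned for Gzmb (0.28) and Ncr1 (1.0), and the log2 fold change of perforin was -0.02. In the same setting Gzma had a log2 fold change of -1.77, the joint row of Gzme, Gzmd and Gzmg -1.08 and Klrk1 -0.28, and Gzmc (-1.99) and Gzmf (-2.60) were no longer called.

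**Figure D4:**
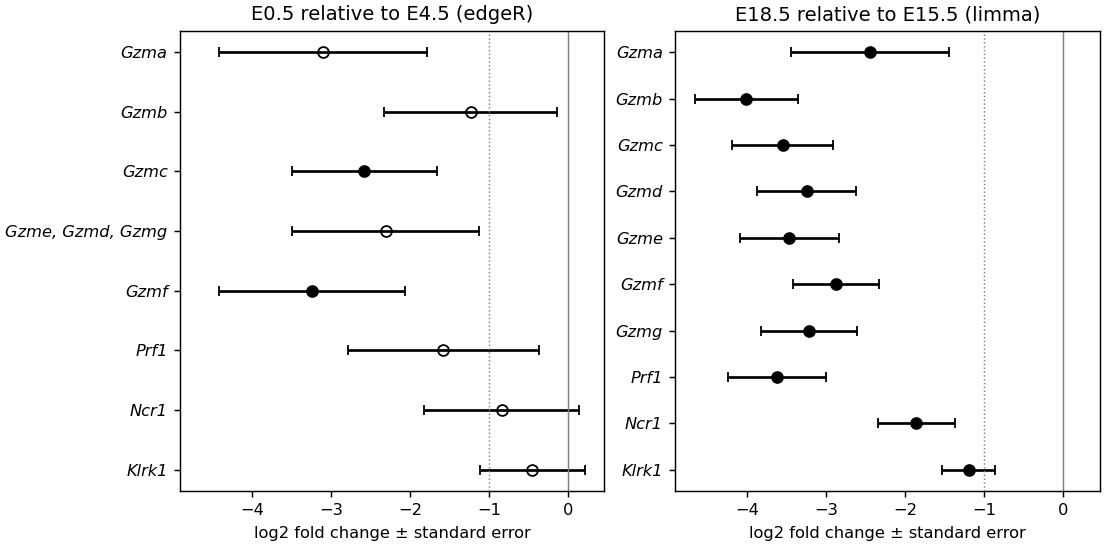
Log2 fold change with its standard error for the 8 member rows at E0.5 relative to E4.5 (left, edgeR on counts) and the 10 members at E18.5 relative to E15.5 (right, limma on log2(FPKM + 0.1)). Filled points passed the study's criterion, the dotted line marks -1, and the filled points are Gzmc and Gzmf on the left and all 10 members on the right.

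The protein-coding rows with the profile most like that of perforin were found by the Euclidean distance between log2(FPKM + 0.1) values over the 6 libraries of a stage, each centred on its own mean. Rows averaging under 1 FPKM were left out. At the labor stage the 5 nearest of 11566 rows were Gzme (distance 0.529), Gzmc (0.567), Gzmd (0.675), Gzmg (0.688) and Gzmb (0.712), all of them members. At the implantation stage the 5 nearest of 11682 rows were Gzmb (0.681), the interleukin receptor chain Il2rb (1.17), the joint row of Gzme, Gzmd and Gzmg (1.35), the granule membrane gene Nkg7 (1.37) and the adenosine receptor Adora2b (1.39). The members did not all lie near one another. At the labor stage Ncr1 had 0 of the 8 other members that reached this mean among its 20 nearest rows and Gzma had 1 of 8, whereas the granzymes B to G had 3 to 6. At E0.5 and E4.5 the 6 member rows that reached it had 0 to 4 of the 5 others among their 20 nearest. The distances share the 6 libraries of each stage and are given as a description.

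The 3 granzymes outside the members, Gzmk, Gzmm and Gzmn, were each at or below 2.67 FPKM at the labor stage. There 2 of the 3 were called lower at E18.5 and none higher, and without E15.5 replicate 1 the count was 1 of 2 tested. Both called rows averaged under 0.1 FPKM at E18.5, so they passed the filter only through E15.5 and had to lie lower at E18.5. Gzmn, which lies between Gzmg and Gzmf, was at 2.67, 1.56 and 0.839 FPKM at E15.5 and at 0.0529, 0.0673 and 0.112 FPKM at E18.5 (log2 fold change -3.21, limma adjusted p = 0.0788). Gzmk was at 0.632, 0.125 and 0.163 FPKM at E15.5 and is listed at 0 in the E18.5 libraries. Gzmm was not called (log2 fold change -0.41), and its days overlapped, with 0.126, 0.337 and 0.488 FPKM at E15.5 and 0.306, 0.129 and 0.167 FPKM at E18.5. In the 6 libraries of E0.5 and E4.5 Gzmn is listed at 0, and neither Gzmk nor the row that Gzmm shares with Cdc34 was called. Gzmk was at 1.41 FPKM in E4.5 replicate 1 and is listed at 0 in the other 5 libraries, so its lower call without E4.5 replicate 3 rests on 1 library. Other called rows whose direction the filter fixed in this way, by a mean under 0.1 FPKM on 1 day, are said to have passed it only through the other day.

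The gene block that continues from Gzme on chromosome 14 holds proteases of mast cells, basophils and neutrophils. Ctsg (cathepsin G, 56099881 to 56102574) was at 42.2, 17.0 and 14.8 FPKM at E15.5 and at 1.92, 2.01 and 6.08 FPKM at E18.5 (log2 fold change -2.89, limma adjusted p = 0.142). Mcpt8, a basophil protease (56082166 to 56085273), was at 3.33, 2.54 and 2.59 FPKM at E15.5 and at 0.154, 0.362 and 0.385 FPKM at E18.5 (log2 fold change -2.91, limma adjusted p = 0.0545). Both moved with the granzymes, and neither overlapped between the days. Mcpt4, a mast cell chymase farther out in the block (56059629 to 56062313), was higher at E18.5, at 4.13, 3.95 and 6.04 FPKM against 3.30, 1.81 and 1.54 FPKM at E15.5 (log2 fold change 1.10, limma adjusted p = 0.243). Of the 4 genes of this list tested at the labor stage, 2 were thus called lower and 1 higher, against 3.11% of all tested rows called higher, and without E15.5 replicate 1, 2 lower and 2 higher. Between E0.5 and E4.5, 1 of 3 tested genes, Ctsg, was called lower, being listed at 0 in the E0.5 libraries and in E4.5 replicate 3 and at 0.897 and 0.544 FPKM in the other E4.5 libraries. Without E4.5 replicate 3, Mcpt4 was called higher beside it. The filter fixed the direction of both, since Ctsg passed it only through E4.5 and Mcpt4 only through E0.5.

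Of the 22 tested rows of other NK cell receptors 13 were called lower at E18.5 and none higher, with a median of -1.58. All 22 had a log2 fold change below 0, against 47.7% of all tested rows. Of these rows 4 (Klra1, Klra5, Klrb1a and Klri2) averaged under 0.1 FPKM at E18.5, which fixed their direction, and 2 of them were among the 13 called. Without E15.5 replicate 1 the count was 7 of 19, with a median of -1.03. The inhibitory receptor Klrg1 was at 36.9, 13.1 and 9.30 FPKM at E15.5 and at 0.763, 1.63 and 2.22 FPKM at E18.5 (log2 fold change -3.46, limma adjusted p = 0.117). The adhesion receptor Cd96 was at 14.5, 6.26 and 3.71 FPKM at E15.5 and at 0.450, 0.639 and 1.43 FPKM at E18.5 (log2 fold change -3.05, limma adjusted p = 0.141). Cd244 (-2.52), Slamf7 (-2.43), Klra7 (-2.57) and Klrd1 (-1.78) were also called lower, with no overlap between the days, and Klrd1 was not called without E15.5 replicate 1. Of 18 rows tested at E0.5 and E4.5, 1 (Slamf7, -1.20) was called lower and none higher, with a median of -0.88. Among these 18 rows 4 (Cd226, Cd96, Klrc1 and Klre1) passed the filter only through E4.5 and 2 (Klra8 and Klrb1a) only through E0.5. Without E4.5 replicate 3 the count was 6 of 19 lower and 1 higher. Cd96 and Klre1, among those 6, passed the filter only through E4.5.

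The adaptors that signal for these receptors gave 4 of 8 rows called lower at E18.5 and none higher, with a median of -1.03, and without E15.5 replicate 1, 3 of 8 with a median of -0.65. Among the 4 were the tyrosine kinase Zap70 (-1.99) and Hcst (-1.44), the DAP10 adaptor of NKG2D. None of 8 was called between E0.5 and E4.5. Of 3 rows with ligands of NKG2D, H60c was called higher at E18.5 (5.52, 2.75 and 3.75 FPKM against 0.105, 0.637 and 1.54 FPKM at E15.5, log2 fold change 2.65). The other 2 rows, the joint row of Raet1e, H60b and Raet1d (-0.80) and Ulbp1 (-0.58), had values below 0 and were not called. Between E0.5 and E4.5 Ulbp1 was the 1 of 2 rows called, lower at E0.5, with 0.467, 0.656 and 0.480 FPKM at E0.5 against 2.19, 1.85 and 1.50 FPKM at E4.5 (log2 fold change -1.78, edgeR adjusted p = 0.0415).

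Transcription factors of NK cell development gave 3 of 10 called lower at E18.5. These were Eomes (-2.40), at 2.39, 2.23 and 0.889 FPKM at E15.5 and 0.145, 0.172 and 0.490 FPKM at E18.5, Runx3 (-1.77) and Id2 (-1.23), and Tbx21 stayed at or below 0.233 FPKM in all 6 libraries. Between E0.5 and E4.5, 4 of 10 were called lower at E0.5, Nfil3 (-3.20), Prdm1 (-2.09), Runx3 (-1.51) and Ets1 (-1.36), several of which are also expressed outside NK cells, and without E4.5 replicate 3, 4 were lower and 1 (Tox) higher. In that setting Tox passed the filter only through E0.5. For interleukin 15, the cytokine that maintains NK cells, and related cytokines with their receptor chains, 2 of 6 rows were called lower at E18.5, Il2rb (-2.59) and the row of Il2rg (-1.01), without E15.5 replicate 1 only 1. Il15 itself was at 4.63, 2.23 and 2.25 FPKM at E15.5 and at 2.12, 2.19 and 2.73 FPKM at E18.5, so the days overlapped. Lower calls at E0.5 were made for 3 of 6 rows, Il15 (0.722, 0.605 and 0.720 FPKM against 3.13, 2.20 and 0.927 FPKM at E4.5, log2 fold change -1.62), Il15ra (-1.58) and the row of Il2rg (-1.25). Without E4.5 replicate 3 the count was 4 lower, Il2rb being added, and 1 (Il18) higher.

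Of the 11 tested genes that store, activate or release granules 2 were called lower at E18.5, with a median of -0.36, and without E15.5 replicate 1 only Nkg7 was. Srgn, the proteoglycan that packs granzymes, was at 598, 342 and 399 FPKM at E15.5 and at 171, 201 and 260 FPKM at E18.5 (log2 fold change -1.06), and Nkg7 had a log2 fold change of -1.57. Ctsc, the peptidase that activates granzymes, was at 47.4, 37.6 and 33.9 FPKM at E15.5 and at 33.5, 34.9 and 24.6 FPKM at E18.5, with overlap. Only Unc13d (-2.05) of 11 was called lower at E0.5, whose highest value (9.93 FPKM) was that of E4.5 replicate 3. Without that library it was not called, while Nkg7 and Ctsw were called lower. Other effectors of NK cells gave 2 of 6 called lower at E18.5, the chemokine Xcl1 (-2.57) and the death ligand Fasl (-2.50), and at the implantation stage 0 of 5 lower and 1 higher at E0.5, against 6.37% of all tested rows called higher there. This was the death ligand Tnfsf10 (9.24, 11.5 and 16.9 FPKM against 3.27, 3.81 and 2.35 FPKM at E4.5, log2 fold change 2.01, edgeR adjusted p = 0.0403).

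Serpins of the group that holds granzyme inhibitors went both ways at the labor stage, with 1 of 10 called lower and 3 higher at E18.5. Serpinb9d was at 1.94, 0.197 and 0.151 FPKM at E15.5 and at 6.35, 7.35 and 6.16 FPKM at E18.5 (log2 fold change 3.65), and Serpinb9c (3.24) and Serpinb9g (2.50) were higher with it, whereas Serpina3n was lower (-1.21). Without E15.5 replicate 1 the count was 1 lower and 5 higher, and of these 5 Serpinb9c passed the filter only through E18.5 in that setting. Members of the Serpinb9 family are close paralogs, so reads may be split among them. At E0.5, 2 of 5 were called lower than at E4.5, Serpinb9 (-1.09) and Serpinb9b, which passed the filter only through E4.5, at 0.0368, 0 and 0.0129 FPKM at E0.5 and at 5.47, 4.70 and 0.0959 FPKM at E4.5. Without E4.5 replicate 3 the 2 called were Serpinb9b and the joint row of Serpina3k, Serpina3m and Serpina3n.

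**Figure D5:**
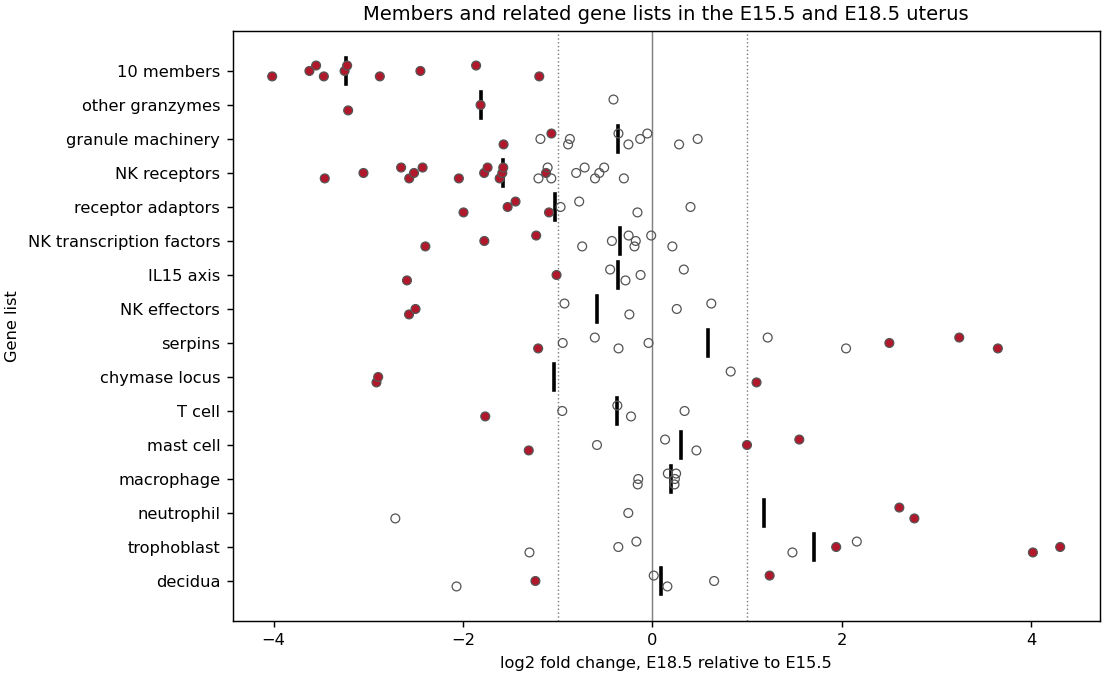
Log2 fold change of each tested gene at E18.5 relative to E15.5, for the 10 members and 15 related gene lists, with 1 point per row. Filled points passed the study's criterion, dotted lines mark -1 and 1, and black bars give the list medians. These run from -3.24 for the members, -1.81 for the other granzymes and -1.58 for the NK receptors to 1.71 for the trophoblast genes. Of the 3 other granzymes, 2 passed the filter only through E15.5. The lists of NKG2D ligands, resident lymphocytes, B cells and pan-leukocyte genes are not drawn.

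Markers of other cells that can hold granzymes or vary in a whole uterus were read beside these values, and their part in the results was not tested. Of 11 T cell genes 5 were tested at the labor stage and 1 (Cd28, -1.76) was called lower, and Cd3d, Cd3e and Cd8a stayed at or below 0.143 FPKM in every labor library. Cd3g was at 0.593, 0.340 and 0.288 FPKM at E15.5 and at 0.0868, 0.122 and 0.296 FPKM at E18.5 (log2 fold change -0.95, not called), with overlap. Cd8b1, below the filter, was at 0.163, 0.145 and 0.201 FPKM at E15.5 and at 0, 0 and 0.0763 FPKM at E18.5. The summed T cell level was 2.52 to 3.15 FPKM at E15.5 and 1.20 to 1.57 FPKM at E18.5. The surface genes of tissue-resident lymphocytes gave 1 of 7 called lower, Cd69 (-2.43). Of 5 B cell genes 1 was tested and not called, with summed levels of 1.34 to 2.65 FPKM at E15.5 and 1.55 to 2.66 FPKM at E18.5. The pan-leukocyte genes gave 2 of 5 called lower, Cd52 (-1.05) and Coro1a (-1.07), and without E15.5 replicate 1 none. Ptprc (CD45) was not called, at 9.93, 6.96 and 5.85 FPKM at E15.5 and at 3.64, 3.88 and 3.60 FPKM at E18.5, a log2 fold change of -0.98.

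Markers of macrophages, mast cells and neutrophils were read in the same way. None of 6 macrophage genes was called, with summed levels of 169 to 208 FPKM at E15.5 and 178 to 248 FPKM at E18.5 and a median of 0.20. Of 7 mast cell genes 6 were tested, with 1 called lower (Hdc, -1.30) and 2 higher (Tpsb2, 1.55, and Cpa3, 1.0), and without E15.5 replicate 1, 0 lower and 2 higher. Of 9 neutrophil genes 4 were tested and 2 were called higher, Ltf (2.77), which uterine epithelium also makes, and Cxcr2 (2.61), which passed the filter only through E18.5. The neutrophil gene S100a8 was not called (-2.71), at 23.96, 0.936 and 0.554 FPKM at E15.5 and 1.08, 0.388 and 0 FPKM at E18.5. Of the 10 trophoblast genes 8 were tested and 3 were called higher at E18.5, led by Tpbpb (4.31, limma adjusted p = 0.00258), with summed levels of 71.0, 8.22 and 5.82 FPKM at E15.5 and 89.4, 117 and 80.4 FPKM at E18.5. Without E15.5 replicate 1, 5 of 7 trophoblast genes were called higher, with a median of 2.81, and of these 5 Prl7a1 passed the filter only through E18.5 in that setting. Of the 7 decidua genes 6 were tested, 1 called lower (Bmp8a, -1.23) and 1 higher (Wnt4, 1.24), with summed levels of 1362, 87.5 and 105 FPKM at E15.5 and 61.0, 67.4 and 80.1 FPKM at E18.5. The high E15.5 sum is that of replicate 1, the library that also held the most granzyme RNA, and all 10 members were called without it.

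At the implantation stage none of 4 T cell genes tested was called (summed levels 1.07 to 1.31 FPKM at E0.5 and 1.09 to 4.15 FPKM at E4.5), nor were the 2 B cell genes tested, of which Cd79b, which passed the filter only through E0.5, was called higher without E4.5 replicate 3. The resident lymphocyte genes gave 1 of 5 lower at E0.5 (Il7r, -1.78, which passed the filter only through E4.5) and 2 higher (Itgae, 1.10, and Itga2, 1.06), and the pan-leukocyte genes gave 1 of 5 higher (Laptm5, 1.02). Without E4.5 replicate 3 these counts became 0 lower and 1 higher (Itga2), and 1 lower (Cd52) and 0 higher. Of 6 macrophage genes 2 were higher at E0.5, Csf1r (1.88) and Adgre1 (1.10), as were 2 of 4 neutrophil genes tested, Ltf (5.63) and Ly6g (3.05). Of 5 mast cell genes tested Kit was lower (-1.38) and none was higher, and without E4.5 replicate 3, 1 (Tpsab1, which passed the filter only through E0.5) was higher beside it. Of the 10 trophoblast genes 8 are listed at 0 in all 6 libraries and the 1 tested was not called. Of 5 decidua genes tested Bmp2 (-3.44) and Dio3 (-4.51) were lower and Alpl (3.35) was higher at E0.5, and without E4.5 replicate 3, 3 of 6 were lower, of which Prl8a2 passed the filter only through E4.5 replicate 1, and 1 higher. Dio3 was at 7.76, 6.24 and 0.619 FPKM in E4.5 replicates 1 to 3, and Bmp2 at 8.25, 4.92 and 3.97 FPKM. In the same replicates Wnt4 was at 2.92, 3.45 and 8.22 FPKM, Alpl at 1.34, 1.29 and 1.36 FPKM, and Prl8a2 at 0.734, 0 and 0 FPKM. Replicate 3 held the least granzyme RNA, and a link between these genes and the granzymes was not tested.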

How the data were processed

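RNA-seq of the whole uterus had been done by the authors on 12 ICR mice, 3 on each of 4 days (E0.5 and E4.5 for implantation, E15.5 and E18.5 for labor). Per the study's methods, reads were trimmed with Cutadapt, aligned with Bowtie2 and TopHat2, assembled with StringTie and quantified with Ballgown, and the submitters' processing notes list Bowtie 0.12.2, HISAT2 2.0 and StringTie 1.3.0, with the builds mm8 and mm10 and no roles. The FPKM values were deposited by the authors as 1 gene table per stage, from separate assemblies. The raw counts in the table of E0.5 and E4.5 were also deposited by the authors, with the counting method not given in the sources used here. FPKM values of 0.0001 in that table stood for 0 and were set back to 0. Positions were taken from that table, whose coordinates match GRCm38 (19274 of 19279 protein-coding rows overlap the RefSeq gene of the same name).

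Counts of E0.5 and E4.5 were tested with edgeR 4.0.16 (TMM, quasi-likelihood F-test) and log2(FPKM + 0.1) of E15.5 and E18.5 with limma 3.58.1 (trend), in R 4.3.3, over every row that averaged 0.1 FPKM or more. Adjusted p-values are those of Benjamini and Hochberg across the tested rows of each stage. A row was called, lower or higher, by the study's criterion (log2 fold change of 1 or more in size, p below 0.05 before adjustment). The tests were checked on simulated data with less spread between libraries than most member rows had, so the check does not cover rows that vary this much. No value column was left unused. Tables and figures were made with Python 3.11.15 and pandas 2.3.3.

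The 10 members and the 19 related gene lists were chosen with earlier results of these data known, and no list was tested as a set. The rule for named genes took all members, from each list at most 6 genes that were called or had the highest levels, and the 5 rows nearest to perforin. Named outside it, after their values were seen, were Tbx21, Tox, Tpsab1, Ctsw, Il18, Ptprc, Cd3d, Cd3e, Cd8a, Cd8b1 and more than 6 genes of the NK receptor, serpin and NK transcription factor lists. Alternatives were no filter or a mean of at least 1 FPKM, a replicate block, upper quartile scaling, DESeq2 1.42.0, limma on FPKM, pseudocounts of 1 and 0.01, quantile normalization, limma without trend and each library left out. Limma without E4.5 replicate 3 was added after seeing the data.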

Additional observations from a re-analysis of the deposited data

Results flagged for a closer look

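Of the rows that carry the name of a member but no Ensembl transcript, and so lay outside the comparisons, 1 had counts. An assembled row named Ncr1, a short stretch within that gene on chromosome 7 (4341533 to 4341761), held 46, 6 and 0 counts in E4.5 replicates 1 to 3 and 0, 4 and 0 counts at E0.5. It is named here because its highest value, 46 counts in E4.5 replicate 1, is above the 3 counts that a count of 0 allows. With 3 mice in each group, single libraries were not tested as outliers.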

How the results depend on the processing

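For the comparison of E0.5 with E4.5, where the main test gave 2 member rows by the study's criterion and 0 by the adjusted p, DESeq2 gave 4 and 3, the replicate block 0 by the study's criterion, and limma on log2(FPKM + 0.1) or log2(FPKM + 1) 0 by the study's criterion. With 1 library left out the counts ranged from 0 to 5 by the study's criterion and from 0 to 4 by the adjusted p, and limma without E4.5 replicate 3, added after seeing the data, gave 5 and 3. Adjusted calls over all rows rose as well, from 719 of 59732 to 4812 with DESeq2 and to 3200 of 58151 without E4.5 replicate 3. With 1 library left out the log2 fold change ranged from -2.35 to 0.28 for Gzmb and from -1.35 to 1.0 for Ncr1, positive without E4.5 replicate 1, and with the replicate block that of Ncr1 was 0.12. For E18.5 against E15.5, 10 rows passed the study's criterion in the main test and 7 to 10 in the alternatives, and 0 to 1 passed the adjusted p with 1 library left out. Of 129 single-gene values of that comparison 121 kept their direction and their side of the study's criterion, 8 lost the call and 0 reversed, and of 110 values of the implantation stage 83 kept both, 15 lost the call, 9 gained one and 3 reversed. The replicate numbers of the labels do not pair the mice: the deviations of same-numbered libraries had correlations from -0.06 to 0.02 in both stages, not every library was closest to its own number, and the block changed no member call at the labor stage. The depth of the labor stage is unknown, and the low levels of Klrk1 and Ncr1 limit what it can show for them.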

Other observations

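Another row of the granzyme block had values at the labor stage. The pseudogene Gm8961, which lies between Gzmn and Gzmf (56178004 to 56180711), was at 9.78, 5.25 and 3.01 FPKM at E15.5 and at 0.288, 0.329 and 1.29 FPKM at E18.5, with a log2 fold change of -3.16 (standard error 0.60, limma adjusted p = 0.142), and is listed at 0 in the 6 libraries of the implantation stage. It lies beside its paralogs, and reads shared with them cannot be told apart. Among the assembled rows of the labor table without an Ensembl transcript, one named Gzmd was at 10.9, 1.31 and 2.55 FPKM at E15.5 and at 0, 0.0863 and 0.00015 FPKM at E18.5. One named Prf1 was at 1.57, 0.749 and 0.357 FPKM at E15.5 and at 0.0305, 0.0562 and 0.287 FPKM at E18.5. One named Ncr1 was at 1.59, 0.577 and 0.257 FPKM at E15.5 and at 0.219, 0.169 and 0.364 FPKM at E18.5, where the days overlapped. These 4 rows were chosen after their values were seen.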
